A study of Mus musculus with 6 samples.

Results

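Integrins are the receptors with which blood cells hold on to matrix and to each other. The genes described here are 32 genes of integrin and leukocyte adhesion, among the 43629 gene rows of the count table. They were taken by symbol from a list, a rule that uses no measured value, though the list was chosen with earlier results of these data known. The list holds 11 integrin alpha chains, 4 beta chains, 8 cytoplasmic activators and focal adhesion proteins, and 9 other surface adhesion molecules. It leaves out the platelet integrin pair. It holds a selectin ligand, Selplg, but no selectin. The selectins were counted among 77 further adhesion genes.

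The cells were c-kit+ bone marrow cells from C57BL/6 mice that had reached the leukaemia end point. All 6 samples belong to the Cbfb-MYH11 model, in which a knocked-in fusion gene is the leukaemia driver, so the fusion is shared by both groups. In 3 samples (replicates 3, 5 and 6) the Gata2 genotype was Gata2+/+, and in 3 samples (replicates 7, 9 and 11) it was Gata2+/f, with 1 of the Gata2 alleles given as f. Neither a Cre driver, an inducing agent nor the age of the mice is given in the labels. Marrow had been frozen and was thawed before the c-kit+ sort. Each library is a bulk sample, so fewer cells of a type and less RNA per cell cannot be told apart. The labels number the samples but do not state that each is a separate mouse with a separate leukaemia, and the p-values measure the spread between these samples.

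An integrin is a pair of 1 alpha and 1 beta chain. Beta2 pairs with Itgal, Itgam or Itgax on leukocytes and binds ICAM-type ligands and complement fragments. Beta1 and beta7 both pair with Itga4, which binds VCAM-1, fibronectin and, with beta7, MAdCAM-1. In bone marrow, binding of alpha4 beta1 to VCAM-1 on stromal cells helps to hold progenitors in place. The chains are switched to a binding state from inside the cell: Rap1 and its exchange factors recruit talin and kindlin-3 to the beta chain tail, and paxillin, vinculin, zyxin and the kinase Pyk2 gather at the contact.

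Promoter sequences are shown for 4 members: Itgam and Itgax, leukocyte alpha chains that lie close together on chromosome 7, Itgb7, the most abundant member, and Itga4, its partner. Each is the stretch of 250 bases before the RefSeq start (build GRCm38.p6), on the strand of the gene, 5′ to 3′. They lie at chr7:128062390-128062639 (+), chr7:128129300-128129549 (+), chr15:102231936-102232185 (−) and chr2:79255176-79255425 (+). Capitals mark matches to 3 motifs searched on both strands: GATA (any of AGATAA or TGATAA or AGATAG or TGATAG), RUNX (TGTGGT) and PU.1 (GAGGAA).
Itgam: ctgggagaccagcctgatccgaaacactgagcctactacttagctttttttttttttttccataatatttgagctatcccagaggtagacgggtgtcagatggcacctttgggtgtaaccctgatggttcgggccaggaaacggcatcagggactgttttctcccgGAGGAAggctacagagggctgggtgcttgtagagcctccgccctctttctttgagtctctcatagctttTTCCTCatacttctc
Itgax: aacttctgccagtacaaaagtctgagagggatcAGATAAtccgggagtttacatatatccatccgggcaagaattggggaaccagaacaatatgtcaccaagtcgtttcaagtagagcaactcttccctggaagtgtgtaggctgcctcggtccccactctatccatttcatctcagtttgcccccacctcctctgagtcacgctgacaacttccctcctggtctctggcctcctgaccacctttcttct
Itgb7: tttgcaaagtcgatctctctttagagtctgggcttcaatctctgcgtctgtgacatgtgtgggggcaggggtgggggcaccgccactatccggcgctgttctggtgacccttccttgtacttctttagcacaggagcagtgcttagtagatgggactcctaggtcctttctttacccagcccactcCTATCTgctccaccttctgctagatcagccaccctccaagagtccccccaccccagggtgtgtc
Itga4: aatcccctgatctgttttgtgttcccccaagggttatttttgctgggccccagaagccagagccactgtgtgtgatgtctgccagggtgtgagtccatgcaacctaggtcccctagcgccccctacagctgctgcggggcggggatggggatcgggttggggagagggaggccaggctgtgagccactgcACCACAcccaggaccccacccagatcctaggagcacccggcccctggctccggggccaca
The Itgam window holds PU.1 letters as GAGGAA 84 bases and as TTCCTC 15 bases before the start. The Itgax window holds AGATAA 217 bases before the start. The Itgb7 window holds CTATCT, the reverse complement of AGATAG, 64 bases before the start, and the Itga4 window holds ACCACA, the reverse complement of TGTGGT, at 60. RefSeq windows were matched for 21 of the 32 members, without Pecam1 and Ptk2b among them, as 24 windows. Of these, 3 (12.5%) held a GATA motif, against 26.5% of 32851 promoters of the same length. A RUNX motif was in 2 (8.33%), against 14%, and a PU.1 motif in 7 (29.2%), against 23.3%. A match is a run of letters and not a bound site.

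Library totals ranged from 53789568 to 67854631 expected counts. Levels are CPM, the count relative to the library total over the genes kept for testing, scaled by its trimmed mean of M-values (TMM) factor. On that scale 3 counts correspond to 0.0424 to 0.06 CPM. Gata2 itself, the gene whose allele differs, stood at 886, 887 and 737 CPM in Gata2+/+ and at 498, 273 and 264 CPM in Gata2+/f, without overlap. Its log2 fold change was -1.28 (SE 0.32, 95% interval -2.01 to -0.54), with an adjusted p of 0.109 by edgeR and 0.0143 by DESeq2. Kit, the gene of the sort, was present in every library, at 826, 1222 and 1466 CPM against 193, 175 and 328 CPM. The 3 Gata2+/f libraries carried more RNA of late neutrophil markers (4093, 4345 and 8234 CPM summed over 12 genes, against 160, 468 and 276). They also carried less of 10 mast cell and basophil markers, of which Kit and Gata2 are 2 (1765, 1326 and 4132 CPM against 11176, 10965 and 13079). Whole chromosomes also differed between libraries: the median gene of chromosome 15, where Itgb7 and Itga5 lie, was shifted on the log2 scale by 0.34, -0.13 and 0.36 in Gata2+/+ and by -0.02, -0.12 and -0.23 in Gata2+/f, and that of chromosome 8, where Itgb1 lies, by 0.42 in Gata2+/f replicate 7.

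All 32 members passed the filter on low counts, and 0 of them passed the edgeR quasi-likelihood test (adjusted p 0.103 to 0.998, Benjamini-Hochberg). That test called 0 of all 15432 genes (0%). Members stood in both directions, with 16 estimates above 0 (51.1% of all genes) and 16 below and a median log2 fold change of 0.09, against 0.02 over all genes tested. At an unadjusted p under 0.05 there were 7 members higher in Gata2+/f (11.1% of all genes) and 3 lower (11.5% of all genes), together 31.2% of the members against 22.6% of all genes. The 7 higher became 3, 7 and 2 when Gata2+/+ replicate 3, 5 or 6 was left out. They became 6, 8 and 2 when Gata2+/f replicate 7, 9 or 11 was left out. The share of all genes at that p in the same sets is not given here. The smaller counts can therefore not be read as particular to the members. DESeq2 called 8 members at an adjusted p under 0.05. Higher were Itga1, Itgam, Itgax, Itgb5, Pecam1 and F11r (6 members, against 5.55% of all genes), and lower were Itgb7 and Ptk2b (2 members, against 4.94%). These calls depended in part on single libraries, and so did the share of all genes called, which was 10.5% with all 6. Without Gata2+/+ replicate 3 DESeq2 called 0 members (4.78% of all genes), and without replicate 6 only Pecam1 (4.58% of all genes). Without Gata2+/f replicate 11 it called only Pecam1, Itgb7 and Ptk2b (13.2% of all genes). The newer edgeR test, limma voom and edgeR without the filter called 0 members, while calling 0.207%, 0.0583% and 0.0806% of all genes. The groups did not overlap for 8 members (25%), 4 higher (13.1% of all genes) and 4 lower (16.6% of all genes), against 29.7% of all genes in either direction.

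**Figure D1:**
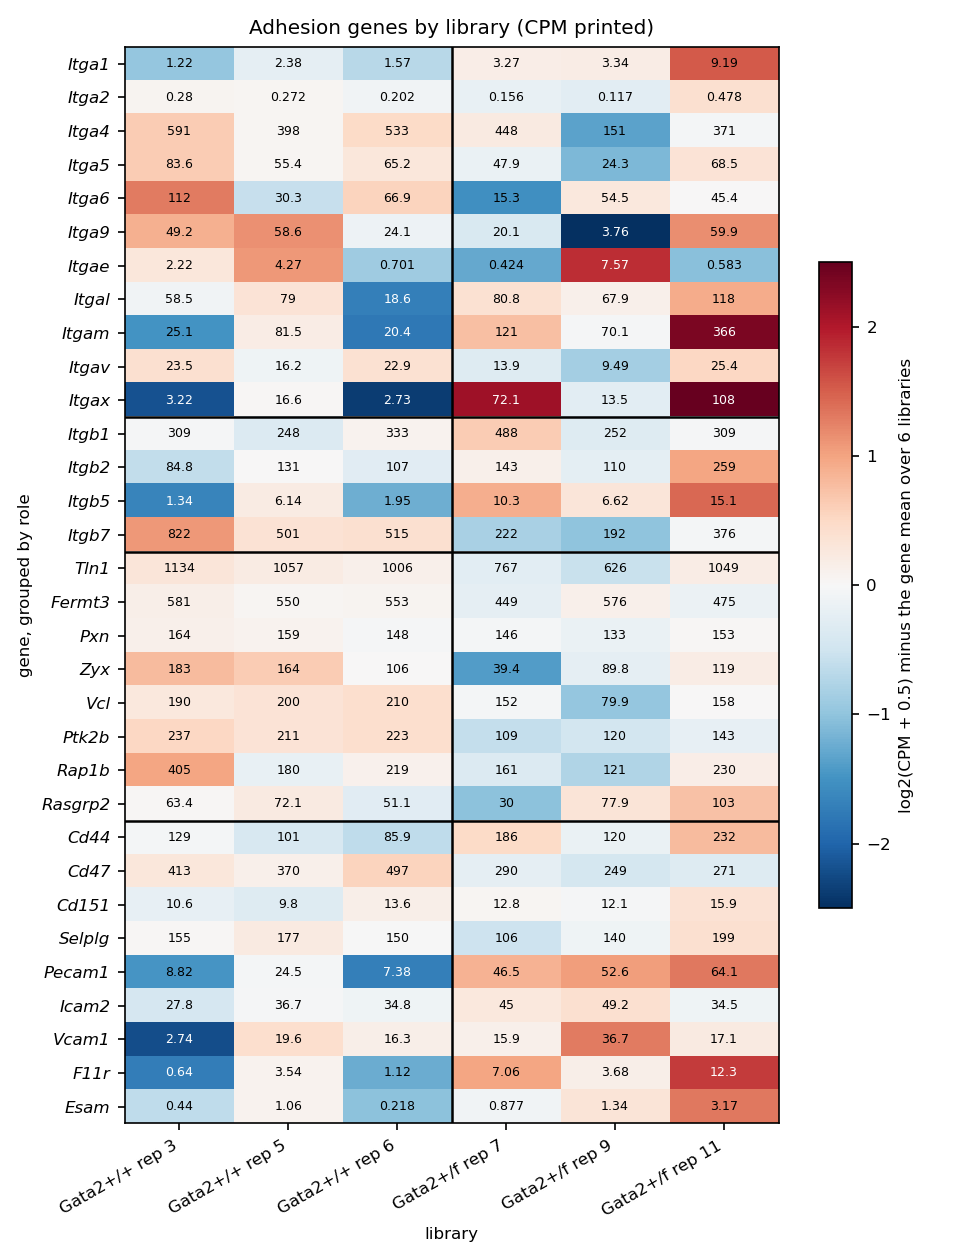
Level of each of the 32 genes (rows, grouped by role) in each of the 6 libraries (columns); the printed number is CPM and the colour is log2(CPM + 0.5) minus the gene's mean over the 6 libraries. Gata2+/f replicate 11 has the highest value of all 6 libraries for 16 of 32 genes, and Gata2+/+ replicate 3 for 10.

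Ranked by mean CPM per kilobase of exon, a scale on which genes can be compared, Itgb7 was the most abundant member in both genotypes, at 221 in Gata2+/+ and 95.1 in Gata2+/f. It was followed in Gata2+/+ by the activators Tln1 (109), Fermt3 (97) and Rap1b (93.1) and by Itgb1 (72.8). Itga4 was the alpha chain with the highest level in Gata2+/+, at 36.3 CPM per kilobase, and stood at 23.1 in Gata2+/f. In Gata2+/f the highest alpha chain was Itgam, which took place 8 among the 32 genes (37 CPM per kilobase) and place 17 in Gata2+/+ (8.42). The collagen receptor chains Itga1 and Itga2 took the last places in both genotypes, at 0.283 CPM per kilobase or less. Length was the union of all annotated exons, so a gene with many long isoforms ranks too low.

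Among the alpha chains, Itgax and Itgam, which pair with beta2, had the highest estimates. Itgax encodes CD11c, the alpha chain of complement receptor 4 and a marker of dendritic cells and some monocytes. It stood at 3.22, 16.6 and 2.73 CPM in Gata2+/+ and at 72.1, 13.5 and 108 CPM in Gata2+/f. Replicates 7 and 11 were high, and replicate 9 lay within the Gata2+/+ range. The means were 7.51 ± 7.86 and 64.4 ± 47.6 CPM (SD, n = 3 each), a log2 fold change of 3.1 (SE 0.95, 95% interval 0.89 to 5.31), which is 8.58-fold. The adjusted p was 0.143 by edgeR and 0.00632 by DESeq2. Leaving out 1 library at a time gave log2 fold changes from 2.54 to 4.43 (the highest without Gata2+/+ replicate 5), each at an unadjusted p under 0.05 in edgeR.

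Itgam encodes CD11b, the alpha chain of Mac-1 on neutrophils and monocytes. It stood at 25.1, 81.5 and 20.4 CPM against 121, 70.1 and 366 CPM. Gata2+/+ replicate 5 exceeded Gata2+/f replicate 9, so the groups overlapped. The difference on the log2 scale was 2.13 (SE 0.75, 95% interval 0.39 to 3.88), with an adjusted p of 0.17 by edgeR and 0.0375 by DESeq2. Without Gata2+/f replicate 11 the log2 fold change was 1.2 (unadjusted p 0.11 in edgeR), and without Gata2+/+ replicate 5 it was 3.02. In the annotation 68.7% of the exon bases of Itgam are shared, on the same strand, with the read-through gene Gm49368, which has no row of its own in the table.

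Itgal encodes CD11a, the alpha chain of LFA-1, the beta2 integrin of lymphocytes and most other leukocytes. Its levels were 58.5, 79 and 18.6 CPM in Gata2+/+ and 80.8, 67.9 and 118 CPM in Gata2+/f. The groups overlapped, and the log2 fold change of 0.77 had an interval from -0.38 to 1.93. Itgal, Itgam and Itgax all lie on chromosome 7 (plus strand, GRCm38), and Itgam (chr7:128062640-128118491) and Itgax (chr7:128129547-128150657) lie close together. The median gene of chromosome 7 was shifted by -0.09 to 0.06 on the log2 scale across the 6 libraries.

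Itga1, the alpha chain of a collagen receptor, was low throughout, at 1.22, 2.38 and 1.57 CPM against 3.27, 3.34 and 9.19 CPM. All 3 Gata2+/f libraries were above all 3 Gata2+/+ libraries. On the log2 scale the difference was 1.61 (SE 0.57), with an adjusted p of 0.173 by edgeR and 0.0413 by DESeq2. Without Gata2+/f replicate 11 it was 0.97 (unadjusted p 0.102 in edgeR).

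The other 7 alpha chains did not pass either test. Itga4, the partner of beta1 and beta7, stood at 591, 398 and 533 CPM in Gata2+/+ and at 448, 151 and 371 CPM in Gata2+/f, where replicate 9 was the lowest. Its log2 fold change was -0.65 (95% interval -1.6 to 0.3, adjusted p 0.366). The fibronectin receptor chain Itga5 had an estimate of -0.54, the laminin receptor chain Itga6 one of -0.86, and Itgav, the alpha chain of the RGD-binding alpha v integrins, one of -0.36. Itga9, which pairs with beta1, varied widely within Gata2+/f: it stood at 20.1, 3.76 and 59.9 CPM in Gata2+/f and at 49.2, 58.6 and 24.1 CPM in Gata2+/+. Its estimate of -0.66 was -1.84 without Gata2+/f replicate 11. Itgae, the alpha chain that pairs with beta7 on epithelial T cells, was at 7.57 CPM in Gata2+/f replicate 9 and at 4.27 CPM or less in the other 5 libraries. Without replicate 9 its log2 fold change turned from 0.25 to -2.21, with an unadjusted p of 0.0424 in edgeR. Itga2, the other collagen receptor alpha chain, was at 0.117 to 0.478 CPM in all 6 libraries.

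**Figure D2:**
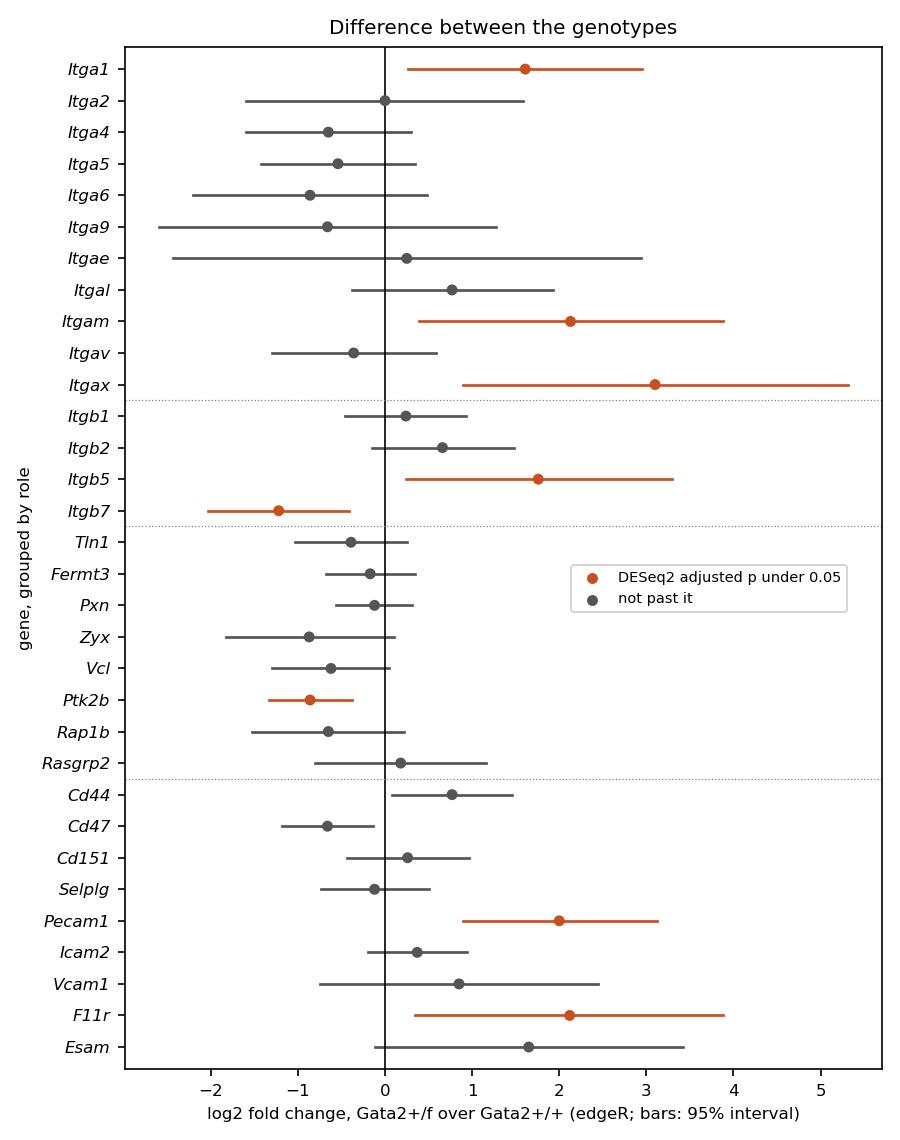
Log2 fold change of each of the 32 genes, Gata2+/f over Gata2+/+, from the edgeR model (points) with its 95% interval (bars), grouped by role; orange marks an adjusted p under 0.05 by DESeq2. The estimates run from -1.22 for Itgb7 to 3.1 for Itgax, and 8 of the 32 genes are marked, 6 on the higher and 2 on the lower side.

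The beta chains differed in direction. Itgb7, which forms alpha4 beta7 and alphaE beta7, was lower in Gata2+/f, at 222, 192 and 376 CPM against 822, 501 and 515 CPM. The highest Gata2+/f library was below the lowest Gata2+/+ library. Its means were 613 ± 181 and 263 ± 99.1 CPM (SD, n = 3 each), 2.33-fold lower, with a log2 fold change of -1.22 (SE 0.35, 95% interval -2.03 to -0.41). The adjusted p was 0.131 by edgeR and 0.0497 by DESeq2. Leaving out 1 library at a time gave -1.52 to -0.9, each at an unadjusted p under 0.05 in edgeR, while DESeq2 called it in 1 of the 6 such sets, the one without Gata2+/f replicate 11. The median gene of chromosome 15 stood 0.31 lower in Gata2+/f on the log2 scale. The part of that shift in the difference of Itgb7 was not tested.

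Itgb5, the partner of alpha v in a vitronectin receptor, stood at 1.34, 6.14 and 1.95 CPM against 10.3, 6.62 and 15.1 CPM. The groups did not overlap, but Gata2+/+ replicate 5 and Gata2+/f replicate 9 were nearly level. The log2 fold change was 1.76 (SE 0.65), with an adjusted p of 0.183 by edgeR and 0.0491 by DESeq2. Without Gata2+/+ replicate 5 it was 2.69. Itgb2, the common chain of the leukocyte beta2 integrins, stood at 84.8, 131 and 107 CPM against 143, 110 and 259 CPM. The groups overlapped, and its log2 fold change of 0.66 (95% interval -0.15 to 1.48) was smaller than that of its partners Itgam and Itgax; the differences between these estimates were not tested.

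Itgb1, the most shared beta chain, gave no detectable difference. It stood at 309, 248 and 333 CPM against 488, 252 and 309 CPM, and the log2 fold change was 0.24 (95% interval -0.46 to 0.93, adjusted p 0.662). The highest value came from Gata2+/f replicate 7, in which the median gene of chromosome 8, where Itgb1 lies, was shifted by 0.42. Without that library the estimate was -0.04. The part of that shift in the estimate of Itgb1 was not tested.

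**Figure D3:**
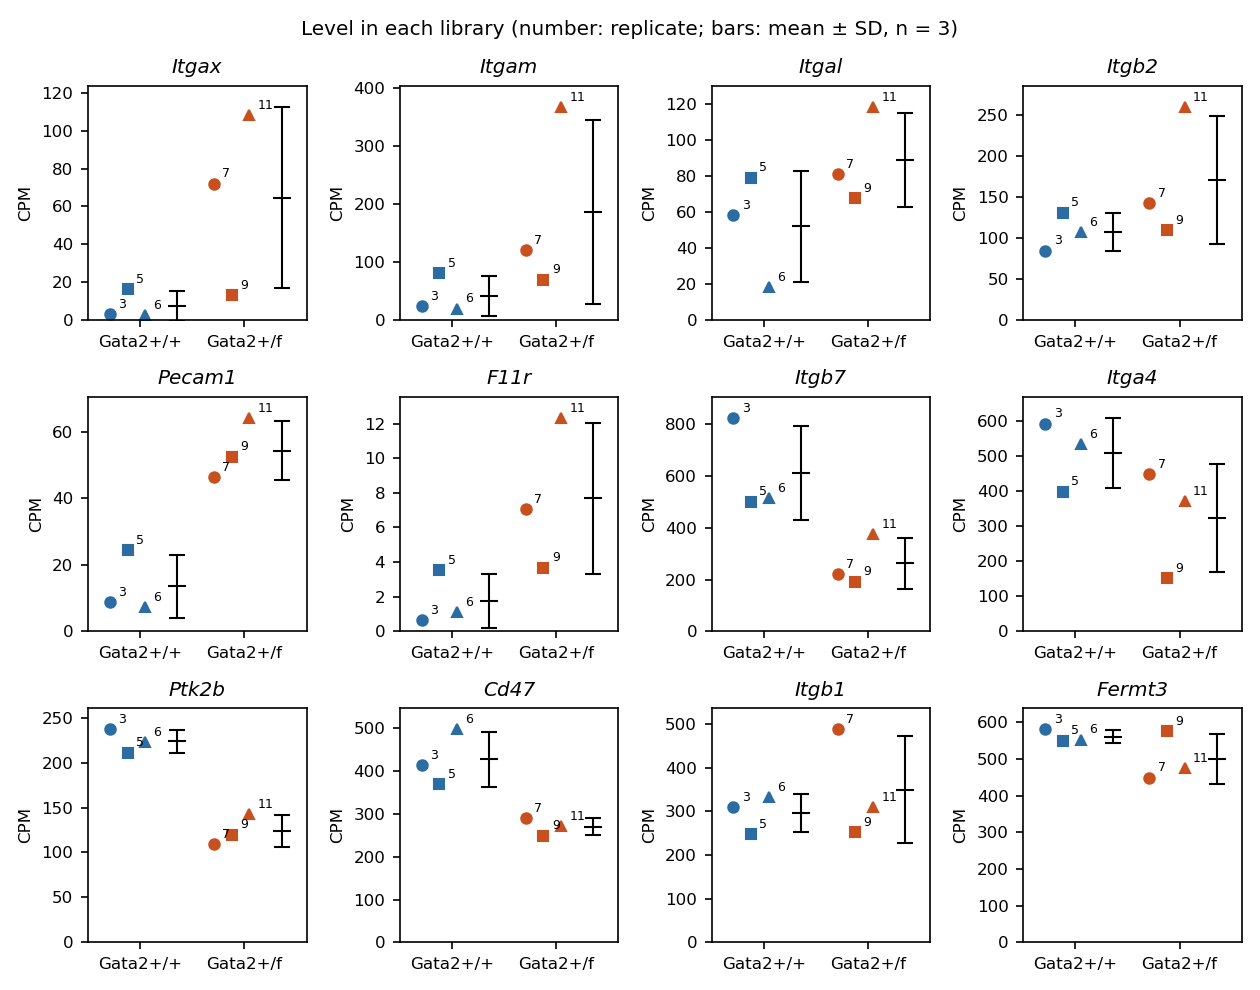
Level in CPM (vertical axes, each starting at 0) of 12 of the genes in each library, with the replicate number beside each point and the mean ± SD of 3 libraries as bars. Pecam1, F11r, Itgb7, Ptk2b and Cd47 have no overlap between the genotypes, and Itgax and Itgam overlap through Gata2+/+ replicate 5 and Gata2+/f replicate 9.

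Of the 8 cytoplasmic activators, 1 had an estimate above 0 (against 51.1% of all genes) and 7 had estimates below 0. Their median log2 fold change was -0.51. The groups did not overlap for 2 of them (25%, against 29.7% of all genes). By edgeR, 1 of the 8 (12.5%) had an unadjusted p under 0.05, against 22.6% of all genes, and by DESeq2 1 was called, against 10.5% of all genes. That gene was Ptk2b, the focal adhesion kinase relative Pyk2, at 237, 211 and 223 CPM against 109, 120 and 143 CPM. The replicates lay close together and the groups were far apart, with means of 224 ± 13 and 124 ± 17.7 CPM (SD, n = 3 each). Its log2 fold change was -0.86 (SE 0.21, 95% interval -1.33 to -0.38), 1.81-fold lower, with an adjusted p of 0.103 by edgeR and 0.0313 by DESeq2. Leaving out 1 library at a time gave -0.93 to -0.72, each at an unadjusted p under 0.05 in edgeR. As with Itgb7, DESeq2 called it in 1 of these 6 sets, the one without Gata2+/f replicate 11.

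Vinculin (Vcl), which links talin to actin, was the other activator without overlap, at 190, 200 and 210 CPM against 152, 79.9 and 158 CPM. Its log2 fold change was -0.62 (95% interval -1.3 to 0.05, adjusted p 0.247). Of its exon bases 25.5% lie opposite Ap3m1, and the strand setting of the counting is not given in the sources used here. Zyxin (Zyx), an actin regulator of mature contacts, stood at 183, 164 and 106 CPM against 39.4, 89.8 and 119 CPM, an estimate of -0.87 (95% interval -1.83 to 0.1).

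The core of the activation machinery passed neither test. Talin (Tln1), which binds the beta chain tail, stood at 1134, 1057 and 1006 CPM against 767, 626 and 1049 CPM, a log2 fold change of -0.39 (95% interval -1.03 to 0.25). Kindlin-3 (Fermt3), its blood cell partner, stood at 581, 550 and 553 CPM against 449, 576 and 475 CPM, with a log2 fold change of -0.17 (-0.68 to 0.35). Paxillin (Pxn), the adaptor of early contacts, had the estimate nearest to 0 of the 8, at -0.12 (-0.56 to 0.31). These intervals leave out a change of the size seen for Ptk2b for kindlin-3 and paxillin, but not for talin. The GTPase Rap1b stood at 405 CPM in Gata2+/+ replicate 3 and at 121 to 230 CPM in the other 5 libraries, an estimate of -0.65 (-1.53 to 0.22), and its exchange factor Rasgrp2 had an estimate of 0.18 (-0.8 to 1.16).

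Of the 9 other surface molecules, 7 had estimates above 0 (against 51.1% of all genes), with a median log2 fold change of 0.77. Pecam1 (CD31), an immunoglobulin family receptor of endothelium, platelets, neutrophils and monocytes, showed the clearest separation. It stood at 8.82, 24.5 and 7.38 CPM in Gata2+/+ and at 46.5, 52.6 and 64.1 CPM in Gata2+/f. The lowest Gata2+/f library was above the highest Gata2+/+ library. The means were 13.6 ± 9.48 and 54.4 ± 8.94 CPM (SD, n = 3 each), 4.01-fold, with a log2 fold change of 2.0 (SE 0.48, 95% interval 0.89 to 3.12). The adjusted p was 0.103 by edgeR and 0.00386 by DESeq2. Leaving out 1 library at a time gave 1.73 to 2.74, and DESeq2 kept the call in 5 of the 6 sets, all but the one without Gata2+/+ replicate 3. Of 8 endothelial and stromal markers, 6 were tested, with 3 estimates above and 3 below 0, and the 8 summed to 57.4, 54.2 and 59.7 CPM against 5.94, 19.6 and 77.8 CPM. Tek stood at 3.18, 4.41 and 0.311 CPM against 0.255, 0.769 and 14.8 CPM, and Cxcl12 at 29.2, 18.6 and 25.1 CPM against 0.0566, 1.04 and 53.8 CPM. Pdgfrb, with the smallest p of the list, was lower in Gata2+/f without overlap. It stood at 24.2, 30.2 and 33.8 CPM against 3.99, 15.3 and 6.92 CPM (DESeq2 adjusted p 0.0143). The defining endothelial gene Cdh5 did not pass the filter. It stood at 0, 0 and 0.0467 CPM against 0.127, 0.0835 and 0.374 CPM, near the floor but higher in Gata2+/f without overlap. Kdr was higher in Gata2+/f, at 0.14, 0.545 and 0.0623 CPM against 1.09, 1.79 and 0.822 CPM, without overlap (DESeq2 adjusted p 0.0427). The part of these markers in the difference of Pecam1 was not tested.

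F11r (JAM-A), a junction molecule that binds LFA-1, was low and higher in Gata2+/f, at 0.64, 3.54 and 1.12 CPM against 7.06, 3.68 and 12.3 CPM. Gata2+/+ replicate 5 and Gata2+/f replicate 9 were again nearly level. The difference on the log2 scale was 2.12 (SE 0.76, 95% interval 0.35 to 3.88), with an adjusted p of 0.174 by edgeR and 0.0313 by DESeq2. Without Gata2+/+ replicate 5 it was 3.11. Esam, a related junction molecule, was at 3.17 CPM or less in every library, and its estimate of 1.65 had an interval from -0.12 to 3.42 and was 0.98 without Gata2+/f replicate 11.

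Cd44, the hyaluronan receptor, stood at 129, 101 and 85.9 CPM against 186, 120 and 232 CPM, a log2 fold change of 0.77 (SE 0.3). Its unadjusted p was 0.034 in edgeR, and its adjusted p was 0.194 by edgeR and 0.185 by DESeq2. Cd47, the ligand of SIRP-alpha that associates with integrins, was the surface molecule with the opposite pattern. It stood at 413, 370 and 497 CPM against 290, 249 and 271 CPM, with no overlap. On the log2 scale the difference was -0.66 (SE 0.22, 95% interval -1.18 to -0.14), with an adjusted p of 0.16 by edgeR and 0.115 by DESeq2. The selectin ligand Selplg (PSGL-1) had an estimate of -0.12 (95% interval -0.74 to 0.51), and the tetraspanin Cd151 one of 0.26 (-0.44 to 0.97). Icam2, a ligand of LFA-1, had an estimate of 0.37 (-0.19 to 0.94). Vcam1, the ligand of alpha4 beta1, was at 2.74 CPM in Gata2+/+ replicate 3 and at 15.9 to 36.7 CPM in the other 5 libraries.

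Because a beta chain meets several alpha chains, the share of each partner was computed within every library from CPM per kilobase, which does not depend on the scaling between libraries. Among the beta2 partners, Itgal held 61.1%, 37.9% and 37.9% in Gata2+/+ and 24%, 38.1% and 15.9% in Gata2+/f. Itgax held 4.6%, 10.9% and 7.6% against 29.2%, 10.3% and 19.8%, and Itgam 34.3%, 51.2% and 54.5% against 46.8%, 51.5% and 64.3%. Gata2+/f replicate 9 and Gata2+/+ replicate 5 had nearly the same mix. Among the beta1 partners Itga4 held 55.5% ± 3.53 and 53.6% ± 11.9 (SD, n = 3 each) and Itga5 21.1% ± 0.415 and 22.1% ± 2.31. Itga4 made up 86.7% or more of the beta7 partners in every library. Over 12 shares the exact two-sided permutation p was 0.1 to 0.9, and each adjusted p was 0.9. The smallest p that 3 against 3 allows is 0.1, so this test could not decide whether any share differed. The share at p 0.1 was that of Itga1 among the beta1 partners. It was 0.0816%, 0.245% and 0.132% in Gata2+/+ and 0.369%, 0.771% and 0.88% in Gata2+/f, without overlap.

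**Figure D4:**
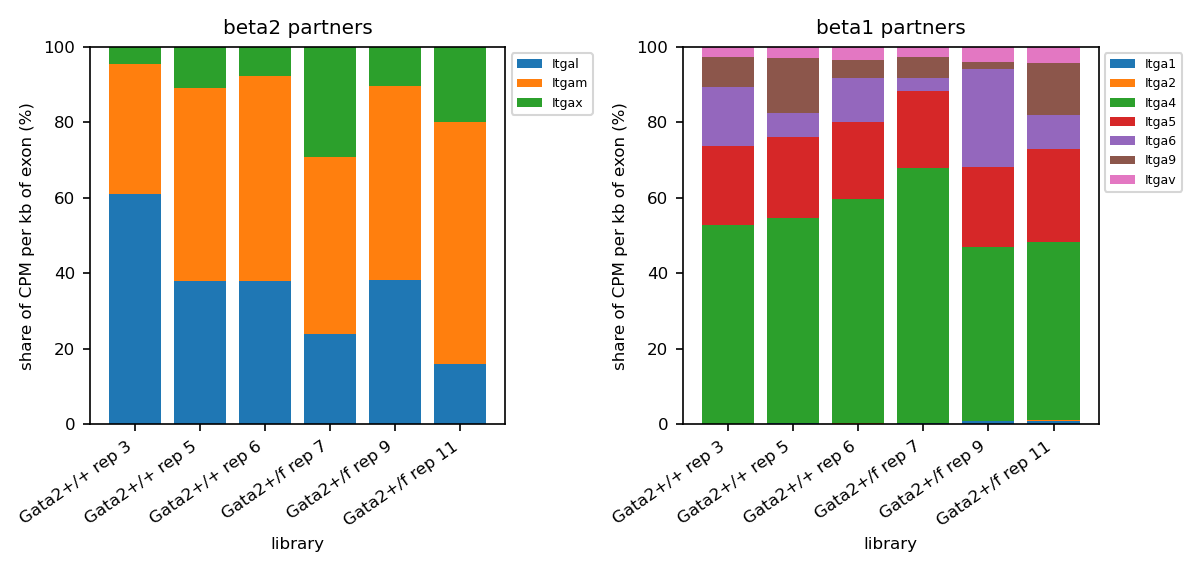
Share of each alpha chain (percent of CPM per kilobase of exon, vertical axis) among the partners of beta2 (left) and beta1 (right) in each of the 6 libraries (bars). Itgax takes 29.2% and 19.8% of the beta2 partners in Gata2+/f replicates 7 and 11 and 10.9% or less in the other 4 libraries, and Itga4 takes 46.2% to 67.4% of the beta1 partners.

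Across the members, Gata2+/f replicate 11 was the highest library of its group for 24 of 32 genes, and replicate 9 the lowest for 20. In Gata2+/+, replicate 5 was the highest for 15, among them Itgam, Itgax, Itgb5, Pecam1 and F11r. In the marker lists of mature myeloid cells, all 12 late neutrophil markers and all 10 monocyte and macrophage markers had estimates above 0, with median log2 fold changes of 3.87 and 1.81. The monocyte and macrophage markers summed to 323, 974 and 393 CPM in Gata2+/+ and to 993, 1992 and 2418 CPM in Gata2+/f, and the 6 dendritic cell markers to 181, 480 and 101 CPM against 402, 350 and 806 CPM. Within each group the highest sums of all 3 lists came from replicate 5 and from replicate 11. None of these markers was at 0 in any library. All 10 mast cell and basophil markers had estimates below 0, with a median of -2.41. The part of these cell type markers in the differences of the adhesion genes was not tested.

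**Figure D5:**
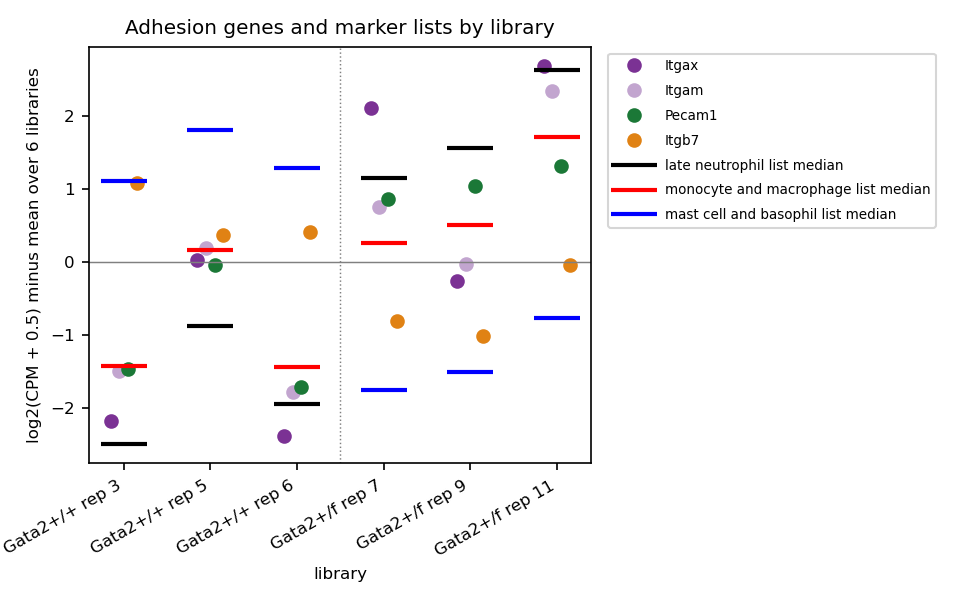
Itgax, Itgam, Pecam1 and Itgb7 (points) and the medians of 3 cell type marker lists (bars) in each library, as log2(CPM + 0.5) minus the mean over the 6 libraries. The late neutrophil median runs from -2.5 in Gata2+/+ replicate 3 to 2.63 in Gata2+/f replicate 11, and the mast cell and basophil median is above 0 in all 3 Gata2+/+ libraries and below 0 in all 3 Gata2+/f libraries.

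The rest of the adhesion pathway was read from lists of 77 further genes, of which 64 passed the filter. Like the members, these lists were chosen with earlier results of these data known. By edgeR 0 of the 64 were called. At an unadjusted p under 0.05 there were 13 higher and 11 lower in Gata2+/f (37.5%, against 22.6% of all genes), and DESeq2 called 9 higher and 7 lower (25%, against 10.5% of all genes). The median log2 fold change was -0.06. Leaving out 1 library at a time left DESeq2 with 3 to 12 higher calls and 4 to 12 lower calls, the fewest higher ones without Gata2+/+ replicate 3. In these sets DESeq2 called 4.58% to 13.2% of all genes. Of its 16 calls, Itga2b, Itgb2l, Src, Cd63, Cd82 and Ceacam1 were made in all 6 such sets, and each of the other 10 was lost in at least 1.

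Of 7 tested integrin chains outside the 32, Itgb2l, a neutrophil relative of beta2, had the largest separation. It stood at 0.9, 1.57 and 1.4 CPM against 22.5, 19.1 and 35.8 CPM, a log2 fold change of 4.32 (SE 0.43). Its adjusted p was 0.0509 by edgeR and 2.72e-20 by DESeq2. Itgad, another alpha chain that pairs with beta2, stood at 0.74, 4.63 and 2.49 CPM against 22.1, 4.6 and 39.4 CPM, so that replicate 9 again lay with Gata2+/+ (log2 fold change 3.07, adjusted p 0.136 by edgeR and 0.00436 by DESeq2). The platelet chain Itga2b was lower, at 647, 625 and 495 CPM against 20.4, 97.1 and 106 CPM, with a log2 fold change of -2.98 and an adjusted p of 0.0966 by edgeR and 6.63e-05 by DESeq2. Itga8, an RGD-binding alpha chain, was below 1 CPM in all libraries, at 0.103 ± 0.0203 and 0.569 ± 0.237 CPM (SD, n = 3 each) without overlap (2.44, adjusted p 0.107 by edgeR and 0.0131 by DESeq2). At an unadjusted p under 0.05 in edgeR these 7 chains held 3 higher and 1 lower (57.1%, against 22.6% of all genes).

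Among 26 tested cytoplasmic regulators, 7 had estimates above 0 (against 51.1% of all genes) and 19 had estimates below 0. Their median log2 fold change was -0.3. The edgeR test gave an unadjusted p under 0.05 to 2 higher and 4 lower (23.1%, against 22.6% of all genes). The kinase Src stood at 3.26, 4.51 and 6.17 CPM against 0.34, 0.334 and 0.777 CPM (log2 fold change -3.26, adjusted p 0.0955 by edgeR and 1.76e-07 by DESeq2). The adaptor Fyb, a partner of SKAP proteins in integrin activation, stood at 434, 339 and 363 CPM against 141, 113 and 245 CPM (-1.19, adjusted p 0.127 by edgeR and 0.0483 by DESeq2). The Rap1 effector Rassf5 (RAPL) and parvin beta (Parvb) had estimates of -0.83 and -1.58 and did not pass either test. Fyb and Parvb lie on chromosome 15, like Itgb7.

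The 10 tetraspanins and CD47 partners held 2 higher and 3 lower genes at an unadjusted p under 0.05 in edgeR (50%, against 22.6% of all genes). Cd63 stood at 739, 383 and 781 CPM against 15.9, 78 and 113 CPM, and Cd82 at 142, 146 and 180 CPM against 79, 48.9 and 50.8 CPM. DESeq2 called both lower (adjusted p 0.000167 and 0.00205), and edgeR gave adjusted p values of 0.0966 and 0.0955. Cd53, a pan-leukocyte tetraspanin, had an estimate of 1.34 and Tspan33 one of -0.79, neither past a test.

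Of 11 tested selectins and genes of selectin ligand synthesis, 7 had an unadjusted p under 0.05 in edgeR, 4 with higher levels and 3 with lower levels (63.6%, against 22.6% of all genes). Selp (P-selectin) stood at 8.58, 13.7 and 6.77 CPM against 14.1, 45.2 and 59.7 CPM. DESeq2 called it higher (adjusted p 0.00912), and its adjusted p was 0.125 by edgeR. The selectin ligand enzymes Gcnt1 and Fut7 were lower in every Gata2+/f library, with estimates of -1.29 and -1.47 (adjusted p 0.129 and 0.14 by edgeR, 0.0494 and 0.0208 by DESeq2). The sialyltransferase St3gal6, named here after its values were seen, stood at 1.38, 1.38 and 7.55 CPM against 9.85, 69.2 and 3.2 CPM, with overlap (2.99, adjusted p 0.205 by edgeR and 0.0368 by DESeq2). The ligand Selplg, as above, gave no detectable difference. Of 10 tested immunoglobulin and junction genes, 2 were higher at an unadjusted p under 0.05 in edgeR (20%, against 22.6% of all genes). Ceacam1, a neutrophil and epithelial adhesion molecule, stood at 3.02, 11.9 and 3.91 CPM against 27.6, 28.9 and 64.9 CPM (2.69, adjusted p 0.1 by edgeR and 0.00082 by DESeq2). Alcam had an estimate of 1.41 (adjusted p 0.173 by edgeR and 0.0445 by DESeq2), and Mcam (1.86) and Icam1 (-0.65) passed neither test.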

How the data were processed

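Per the submitters' processing notes, the tools were STAR 2.5.4a, RSEM 1.3.0 and CASAVA 1.8.2, on GRCm38. The authors deposited expected counts (RSEM estimates of reads per gene, not normalized) for 6 libraries; 11.7% were not whole and all were rounded. The annotation release and strand setting are not given in the sources used here. Symbols, positions and exon lengths came from GENCODE M21, promoters from RefSeq (GRCm38.p6).

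Genes were kept by filterByExpr (minimum count 10; 15432 of 43629), scaled by TMM and tested with the legacy quasi-likelihood test of edgeR 4.0.16 in R 4.3.3 (two-sided, no covariate; Benjamini-Hochberg over all tested genes, threshold 0.05). Its common biological coefficient of variation was 0.483, and the fits were tested on simulated data. Alternatives included DESeq2 1.42.0 on the whole table, newer edgeR, voom (limma 3.58.1), other scalings and filters, and leaving out each library.

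The members and lists were chosen with earlier results of these data known. The rule for named genes took all members, Gata2, and up to 4 genes with the smallest p of each related and marker list; most markers are given as list summaries, and 1 related gene is not reported here. Cdh5, Tek, Cxcl12, St3gal6, and Ap3m1 and Gm49368 as sharing genes, were named otherwise.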

Additional observations from a re-analysis of the deposited data

How the results depend on the processing

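No paired analysis was possible because the groups share no replicate number. Of the 32 members 27, and of the 60 other genes named by the rule 58, kept their direction in every alternative. Tek, named outside that rule and not in that count, turned from a log2 fold change of 1.0 to -0.16 with voom. DESeq2 called 6 members higher and 2 lower and 9 and 7 related genes, where edgeR called 0. Voom, the newer edgeR test, and no filter beyond 1 count each called 1 related gene higher, and so did leaving out Gata2+/f replicate 11, which also gave 1 lower.

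Leaving out each library in turn gave 2 to 8 members higher at an unadjusted p under 0.05 in edgeR and 8 to 13 related genes. The share of all genes at that p in these sets is not given here, so the range cannot be read as particular to these genes. In DESeq2, added after seeing the data and calling 4.58% to 13.2% of all genes, leaving out each library gave 0 to 7 members higher and 0 to 2 lower. Of the related genes it gave 3 to 12 higher and 4 to 12 lower. In percentage points, the difference in partner share ran over these sets from -8.74 to 1.83 for Itga4, from -0.276 to 1.88 for Itga5, from -4.88 to 6.28 for Itga6 and from -5.34 to 0.723 for Itga9, with the direction turning in each. Log2 fold changes that turned direction without 1 library ran from -0.83 to 0.38 for Itga2, from -2.21 to 0.96 for Itgae, from -0.04 to 0.48 for Itgb1, from -0.17 to 0.59 for Rasgrp2, from -0.35 to 0.12 for Selplg, from -0.59 to 4.97 for the platelet marker Pf4 and from -0.35 to 0.83 for the T cell marker Cd4.

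Itga2, at about 0 by TMM, was 0.03 with DESeq2, with its size factors and with no filter, 0.01 with newer edgeR and 0.09 with upper quartile factors, and Itgae was -0.62 with voom. TMM put the median gene at a log2 fold change of 0.019, the size factors of DESeq2 put it at 0.031 and upper quartile factors at 0.111. The filter of 1 CPM in 3 libraries left no value for Itga2 and other low genes, which depth limits most, and 3 libraries a group limit every interval.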

Other observations

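A further ratio was computed after the values had been seen: the summed level of the alpha chain partners over the level of the beta chain, each in CPM per kilobase of exon within a library. For beta2 (Itgal, Itgam and Itgax over Itgb2) it was 0.524, 0.737 and 0.212 in Gata2+/+ and 1.09, 0.754 and 1.34 in Gata2+/f. For beta1 (7 alpha chains over Itgb1) it was 1.06, 0.861 and 0.785 against 0.397, 0.377 and 0.742. The 2 ratios stood in opposite directions and neither overlapped between the genotypes, but the nearest libraries were close. These were 0.737 and 0.754 for beta2 (Gata2+/+ replicate 5 and Gata2+/f replicate 9) and 0.785 and 0.742 for beta1 (replicates 6 and 11). For beta7 (Itga4 and Itgae over Itgb7) the ratio was 0.144, 0.163 and 0.206 against 0.402, 0.18 and 0.196, with overlap. Over these 3 ratios the exact two-sided permutation p was 0.1, 0.1 and 0.3, of which 0.1 is the smallest possible with 3 against 3. The ratios compare RNA levels of chains, not assembled receptors, and Itga4 entered both the beta1 and the beta7 ratio.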
